A study of Rattus norvegicus with 12 samples.

Results

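The transcripts described here are 10 heat-shock chaperone genes of rat kidney: Hspa1a, Hspa1b, Hspa8, Dnajb1, Hsph1, Bag3, Hspb1, Hsp90aa1, Hspd1 and Hspe1. They were taken by gene symbol, and all 10 symbols matched a single row of the deposited table, which held 20455 genes with at least 1 read. All 10 also passed the filter on low counts that left 14664 genes for testing. RNA of whole kidney tissue was sequenced in 12 libraries in 3 groups of 4. The sham group was the control, the CPB group had cardiopulmonary bypass (blood circulated and oxygenated by a machine outside the body), and the CPB+Nitrite group had bypass together with nitrite, an anion from which tissues can form nitric oxide. The design text gives the aim as acute kidney injury after bypass in rats and its modification by nitrite. The labels name no strain, age, sex, nitrite dose, bypass duration or time of sampling, and do not say whether nitrite was given before or after bypass began. They also do not say that the 4 replicates of a group are separate animals, so each p-value measures the spread between these libraries, which may be technical.

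Heat-shock chaperones bind proteins that have lost their fold and keep them from aggregating, refold them, or hand them on for degradation. Many of their genes are switched on by the transcription factor HSF1. In unstressed cells HSF1 is held inactive by chaperones, and when misfolded proteins occupy those chaperones it forms trimers, enters the nucleus and binds heat-shock elements in promoters. A heat-shock element is an array of the short unit nGAAn in alternating orientation, read on the top strand as GAANNTTC or TTCNNGAA for neighbouring units. In the kidney, tubule cells are known to raise HSP70 and HSP27 after loss of blood flow, and cells of the inner medulla carry high levels of several of these proteins because of the high solute concentration there.

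Promoters are shown because these 10 genes are known for their shared heat-shock elements. RefSeq promoter windows of 300 bases (250 before the transcription start and 50 after it, build GRCr8) were present for 8 of the 10 genes; Hspa1b and Hsp90aa1 were not matched. Each line below holds 70 bases 5′ to 3′ on the strand of the gene, with the matches to GAANNTTC or TTCNNGAA in capitals. The segments lie at chr12:10427298-10427367 (plus strand) for Hsph1, chr8:50080427-50080496 (plus) for Hspa8, chr9:64084235-64084304 (plus) for Hspe1, chr12:26432378-26432447 (minus) for Hspb1, chr19:41431142-41431211 (minus) for Dnajb1 and chr1:192533291-192533360 (plus) for Bag3.
Hsph1: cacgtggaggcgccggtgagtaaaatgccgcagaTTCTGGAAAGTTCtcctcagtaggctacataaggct
Hspa8: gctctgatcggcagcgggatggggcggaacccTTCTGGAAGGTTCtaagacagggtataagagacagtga
Hspe1: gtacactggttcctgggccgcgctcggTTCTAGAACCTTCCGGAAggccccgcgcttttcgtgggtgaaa
Hspb1: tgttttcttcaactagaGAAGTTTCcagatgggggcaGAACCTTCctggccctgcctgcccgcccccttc
Dnajb1: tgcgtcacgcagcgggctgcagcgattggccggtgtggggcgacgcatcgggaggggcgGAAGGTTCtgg
Bag3: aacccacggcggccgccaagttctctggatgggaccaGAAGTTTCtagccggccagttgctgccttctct

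The motif GAANNTTC, which reads the same on both strands, was found in 7 of the 8 chaperone windows and in 8.59% of all 33469 promoter windows of this length. TTCNNGAA was found in 4 of the 8 and in 8.77% of all windows. A run of 3 alternating units, in which a GAANNTTC and a TTCNNGAA match overlap by a shared unit on either strand, was found in Hsph1, Hspa8, Hspe1 and Hspd1, 4 of the 8, and in 0.798% of all windows. Counted from the transcription start, this run began at -36 in Hsph1, at -55 and again at -213 in Hspa8, and at -65 and -60 in Hspe1. Hspd1 and Hspe1 start 290 bases apart on opposite strands, so their windows share 211 bases and the run of units printed for Hspe1 is the same stretch of DNA that lies in the Hspd1 window. Hspb1 held a pair of separate GAANNTTC matches, at -129 and -109 from its start. The Hspa1a window held none of these letter patterns. These matches are descriptions of sequence, and no binding was measured.

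Between 16.8 and 25.8 M reads were counted per library (M stands for mega). Levels are given as counts-per-million (CPM), scaled between libraries with edgeR's TMM factors, which ran from 0.887 to 1.11. Proximal tubule markers were abundant in every library, with summed levels between 6670 and 7765 CPM in sham libraries, between 4437 and 4965 CPM after bypass and between 4597 and 6759 CPM with nitrite. The 6 markers of skeletal and cardiac muscle summed to 0.532 to 15.7 CPM in sham libraries, 1.74 to 2.61 CPM after bypass and 1.67 to 4.73 CPM with nitrite, with Tnnt2 at 12.1 CPM at most, Ckm at 0.476 and Myh4 at 0.0889. In a principal component analysis of all tested genes except the 10 chaperones, the first component (52.5% of the variance) placed the sham libraries at -73.5, -73.8, -37.3 and -60.8 and the CPB libraries at 47.1, 64.2, 72.0 and 75.7. CPB+Nitrite 1 (42.8) and 4 (26.8) fell nearer the CPB libraries, CPB+Nitrite 2 (-50) and 3 (-33.1) nearer sham.

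Mean chaperone levels were higher in CPB than in sham. The median log2 level of the 10 genes relative to sham was 0.24 in CPB 1 and 2.03, 2.74 and 2.67 in CPB 2 to 4. By the quasi-likelihood test of edgeR, Benjamini-Hochberg adjusted over all genes, 7 of the 10 genes rose in CPB against sham at an adjusted p under 0.05, where 21.7% of all tested genes rose and 43.2% changed in either direction. The 7 were Hspa1a, Hspa1b, Hspb1, Hsph1, Hsp90aa1, Bag3 and Dnajb1. With the near-identical copies Hspa1a and Hspa1b replaced by their sum, 6 passed. Hspa8, Hspd1 and Hspe1 did not pass. All 10 had a positive log2 change, as had 47.4% of all tested genes; the median of the 10 was 2.16 and that of all tested genes -0.05. At an unadjusted p under 0.05 there were 8 of the 10 and 52.6% of all tested genes. All 10 passed with limma's voom (29.8% of all genes higher), with the sham and CPB libraries fitted alone (28.8%) and without CPB+Nitrite 4 (21.8%), and 8 of the 10 passed with DESeq2 (21.8% of all genes higher). In 5 genes (Hsph1, Bag3, Dnajb1, Hspb1 and Hsp90aa1) all 4 CPB libraries lay above all 4 sham libraries, as they did in 23.5% of all tested genes. With scaling by library totals alone the median over all tested genes moved from -0.05 to -0.24 and the calls from 3184 higher and 3148 lower to 2281 and 4269, while the 10 chaperones stayed positive (0.39 to 5.47) and 6 passed. Because whole tissue was sequenced, fewer cells of a type and less RNA per cell cannot be told apart in any of these values.

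**Figure D1:**
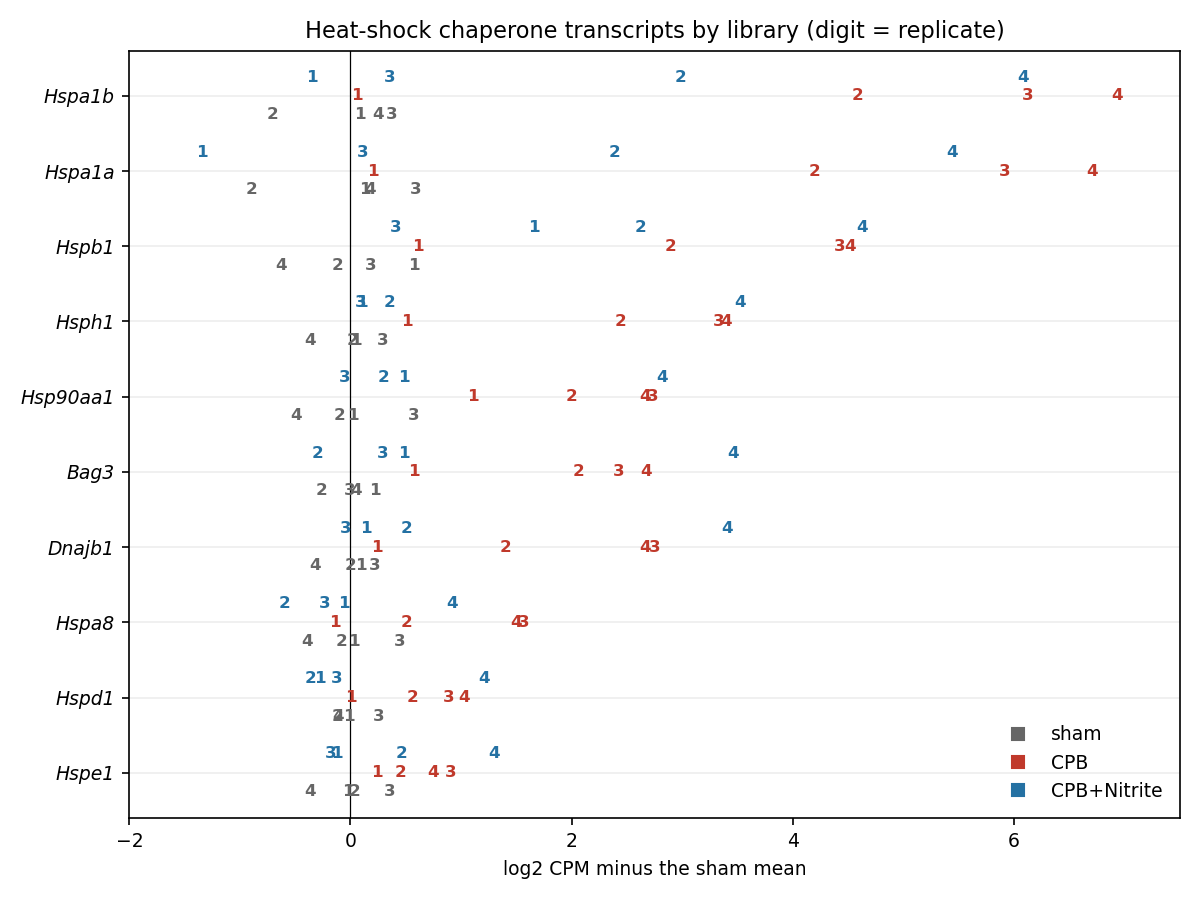
Level of each of the 10 chaperone transcripts in every library, as log2 CPM minus the mean of the 4 sham libraries; each digit is a replicate number, grey for sham, red for CPB and blue for CPB+Nitrite. For 9 of the 10 genes CPB replicates 2, 3 and 4 and CPB+Nitrite replicate 4 are the 4 highest libraries, while CPB replicate 1 is not among the 4 highest for any gene.

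Hspa1a and Hspa1b encode the inducible HSP70, the chaperone that binds exposed hydrophobic stretches of client proteins in cycles driven by ATP. They are near-identical copies, and in the authors' annotation (build mRatBN7.2) Hspa1a (ENSRNOG00000045654, chromosome 20, 3856006 to 3873227, minus strand) and Hspa1b (ENSRNOG00000050647, chromosome 20, 3856006 to 3873240, plus strand) span almost the same bases. Hspa1a received 0.111% to 0.338% of the reads of the pair in every library, for example 0.271% in CPB 4 (Wilson 95% interval 0.256% to 0.287%, counting error only, since reads copied by PCR are not independent molecules). How reads were divided between the copies cannot be recovered from the table, so the sum of both is described.

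The summed Hspa1a and Hspa1b level was 256.1, 147.9, 314.5 and 287.6 CPM in sham libraries 1 to 4. In CPB libraries 1 to 4 it was 252.0, 5791, 16867 and 29540 CPM. In CPB+Nitrite libraries 1 to 4 it was 190.0, 1919, 310.2 and 16369 CPM. CPB 1 lay inside the sham range and the other CPB libraries far above it, so that within the CPB group the highest level was 117.2 times the lowest. In CPB+Nitrite, libraries 2 and 4 lay above all sham libraries and libraries 1 and 3 within the sham range. The group means were 251.5 ± 73.1 CPM in sham, 13112 ± 12948 in CPB and 4697 ± 7821 in CPB+Nitrite (SD, n = 4 each). The log2 change of CPB from sham was 5.70 (standard error, SE, 1.53; adjusted p = 0.0111, quasi-likelihood test of edgeR, Benjamini-Hochberg adjusted). Without CPB 4 it was 4.93.

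The rows of the copies taken alone moved alike. Hspa1a was at 0.322 to 1.06 CPM in sham and at 0.790, 13.9, 46.1 and 80.0 CPM in CPB, a log2 change of 5.59 (SE 1.53, edgeR adjusted p = 0.0122). Hspa1b, which held nearly all reads of the pair, had a log2 change of 5.70 (edgeR adjusted p = 0.0111).

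Hspa8 (ENSRNOG00000034066, chromosome 8, 41183264 to 41187259, plus strand) encodes HSC70, the HSP70 that cells make without stress and that also strips clathrin from vesicles and feeds chaperone-mediated autophagy. Its level was 4243, 3932, 5632 and 3156 CPM in sham and 3771, 5903, 12262 and 11741 CPM in CPB. CPB 3 and CPB 4 stood well above the rest, CPB 2 just above the highest sham library and CPB 1 within the sham range. In CPB+Nitrite it was 3980, 2744, 3530 and 7834 CPM, with library 2 below every sham library and library 4 above them. CPB differed from sham by 0.99 on the log2 scale (SE 0.40), which did not pass (adjusted p = 0.0619, quasi-likelihood test of edgeR, Benjamini-Hochberg adjusted). It passed without CPB 1 (adjusted p = 0.0205), without CPB+Nitrite 2 (0.0450) and without CPB+Nitrite 4 (0.0352). It also passed in DESeq2 (0.0252), in limma's voom with sample weights (0.0157) and when the fit held the sham and CPB libraries alone (0.0263). With any other library left out it did not pass (edgeR adjusted p = 0.0567 to 0.175). Nor did it with library totals alone (edgeR adjusted p = 0.102) or the replicate block (0.0877).

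The ratio of the inducible to the constitutive HSP70 transcripts does not depend on how libraries are scaled. Reads of Hspa1a and Hspa1b per read of Hspa8 were 0.0604, 0.0376, 0.0558 and 0.0911 in sham, and 0.0668, 0.981, 1.38 and 2.52 in CPB. In CPB+Nitrite the ratio was 0.0478, 0.699, 0.0879 and 2.09. Reads of the inducible genes thus outnumbered those of Hspa8 in CPB 3, CPB 4 and CPB+Nitrite 4. The mean log2 ratio differed by 3.57 between CPB and sham (two-sided exact permutation p = 0.0571; 0.257 after Benjamini-Hochberg adjustment over 9 ratio tests), where 4 against 4 libraries allow no p below 0.0286.

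Dnajb1 (ENSRNOG00000021824, chromosome 19, 24522717 to 24526458, minus strand) encodes a J-domain protein that delivers clients to HSP70 and starts its ATP hydrolysis. Its level was 73.0, 68.5, 79.4 and 54.8 CPM in sham and 80.4, 180.1, 461.2 and 432.6 CPM in CPB. In CPB+Nitrite it was 75.4, 97.1, 66.2 and 723.6 CPM. CPB 1 exceeded the highest sham library by less than 1 CPM, and the highest of all 12 libraries was CPB+Nitrite 4. Dnajb1 rose in CPB, with a log2 change of 2.07 (SE 0.76, adjusted p = 0.0421, quasi-likelihood test of edgeR, Benjamini-Hochberg adjusted). This call was lost without any 1 of the 4 sham libraries and without CPB 2, CPB 3 or CPB 4 (edgeR adjusted p = 0.0504 to 0.106), and with scaling by library totals alone (1.84, adjusted p = 0.0554).

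Nucleotide exchange factors reset HSP70 by releasing ADP, and both such genes among the 10 were higher in CPB. Hsph1 (ENSRNOG00000000902, chromosome 12, 5390922 to 5410224, plus strand) encodes HSP110, which works with HSP70 in disaggregation. Its level was 195.2, 192.2, 232.3 and 147.3 CPM in sham and 269.4, 1026, 1910 and 1994 CPM in CPB. In CPB+Nitrite libraries 1 to 3 it stayed at 203.4, 241.4 and 201.4 CPM, close to sham, and in library 4 it reached 2180 CPM. Hsph1 rose in CPB, with a log2 change of 2.76 (SE 0.82, adjusted p = 0.0173, quasi-likelihood test of edgeR, Benjamini-Hochberg adjusted).

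Bag3 (ENSRNOG00000020298, chromosome 1, 183102871 to 183126858, plus strand) encodes a co-chaperone that links HSP70 and small heat-shock proteins to selective autophagy. Its level was 62.3, 44.4, 53.3 and 55.2 CPM in sham and 79.7, 222.7, 288.0 and 342.1 CPM in CPB. In CPB+Nitrite it was 74.5, 43.4, 65.3 and 587.4 CPM, with libraries 1 to 3 near the sham range. Bag3 rose in CPB, with a log2 change of 2.12 (SE 0.73, adjusted p = 0.0339, quasi-likelihood test of edgeR, Benjamini-Hochberg adjusted). The call was lost without any 1 of the 4 sham libraries and without CPB 2, CPB 3 or CPB 4 (edgeR adjusted p = 0.0553 to 0.0820).

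Hspb1 (ENSRNOG00000023546, chromosome 12, 20794028 to 20795743, minus strand) encodes HSP27, a small heat-shock protein that holds unfolded clients without ATP and also acts on actin filaments. Its level was 53.6, 33.1, 40.9 and 23.2 CPM in sham and 54.9, 267.7, 776.0 and 828.9 CPM in CPB. In CPB+Nitrite it was 114.2, 222.7, 47.9 and 890.1 CPM, so that libraries 1, 2 and 4 lay above every sham library and library 3 within the sham range. Hspb1 rose in CPB, with a log2 change of 3.68 (SE 0.93, adjusted p = 0.00836, quasi-likelihood test of edgeR, Benjamini-Hochberg adjusted), a fitted 12.8-fold difference. It had the smallest adjusted p of the 10 genes in this comparison.

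Hsp90aa1 (ENSRNOG00000059714, chromosome 6, 129702383 to 129707268, minus strand) encodes the inducible cytosolic HSP90, which matures kinases and steroid receptors. Its level was 607.1, 559.6, 888.3 and 427.0 CPM in sham and 1290, 2389, 3979 and 3801 CPM in CPB. In CPB+Nitrite it was 837.6, 734.4, 579.1 and 4215 CPM, with libraries 1 to 3 inside the sham range. Hsp90aa1 rose in CPB, with a log2 change of 2.21 (SE 0.60, adjusted p = 0.0123, quasi-likelihood test of edgeR, Benjamini-Hochberg adjusted). CPB 1 lay well above the highest sham library for this gene. Rows named as pseudogenes of Hsp90aa1 held reads equal to 0.653% of those of the gene, and those of Hspa8 0.0392%.

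The constitutive partner Hsp90ab1, which is not among the 10 genes, was at 1089 to 1644 CPM in sham and 1812, 2668, 4565 and 5061 CPM in CPB, a log2 change of 1.32 (SE 0.37, edgeR adjusted p = 0.0136). Reads of Hsp90aa1 per read of Hsp90ab1 were 0.369, 0.420, 0.556 and 0.392 in sham and 0.712, 0.896, 0.872 and 0.751 in CPB. Every CPB library, CPB 1 included, lay above every sham library. In CPB+Nitrite the ratio was 0.525, 0.614, 0.421 and 1.29. The mean log2 ratio differed by 0.91 between CPB and sham, with an exact permutation p of 0.0286, the smallest that 4 against 4 libraries can give, and 0.257 after adjustment over the 9 ratio tests.

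Hspd1 (ENSRNOG00000014525, chromosome 9, 56579201 to 56589662, minus strand) and Hspe1 (ENSRNOG00000051624, chromosome 9, 56589789 to 56593089, plus strand) encode HSP60 and HSP10, the barrel and the lid of the chaperonin of the mitochondrial matrix. Hspd1 was at 704.4, 655.9, 849.8 and 659.9 CPM in sham, 716.9, 1050, 1317 and 1450 CPM in CPB and 587.8, 555.7, 652.4 and 1647 CPM in CPB+Nitrite. Hspe1 was at 158.7, 164.6, 205.8 and 124.9 CPM in sham, 190.2, 220.4, 302.2 and 269.5 CPM in CPB and 148.1, 221.9, 142.6 and 396.9 CPM in CPB+Nitrite. For both genes CPB 1 lay within the sham range and CPB 2, 3 and 4 above it.

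Neither mitochondrial chaperonin gene passed in CPB against sham: the log2 change was 0.66 for Hspd1 (SE 0.34, adjusted p = 0.126) and 0.59 for Hspe1 (SE 0.30, adjusted p = 0.128), by the quasi-likelihood test of edgeR, Benjamini-Hochberg adjusted. Both passed without CPB+Nitrite 4 (edgeR adjusted p = 0.0219 for Hspd1 and 0.0355 for Hspe1), when sham and CPB were fitted alone (0.0135 and 0.0131) and with limma's voom (0.0152 and 0.0264). With any other library left out neither passed (edgeR adjusted p = 0.0661 to 0.273 for Hspd1 and 0.0921 to 0.271 for Hspe1). The number of Hspe1 reads per Hspd1 read lay between 0.189 and 0.251 in sham, between 0.186 and 0.265 in CPB and between 0.219 and 0.399 in CPB+Nitrite. The difference in the mean log2 ratio was -0.03 between CPB and sham, 0.29 between CPB+Nitrite and CPB and 0.26 between CPB+Nitrite and sham (exact permutation p = 0.886, 0.286 and 0.371).

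**Figure D2:**
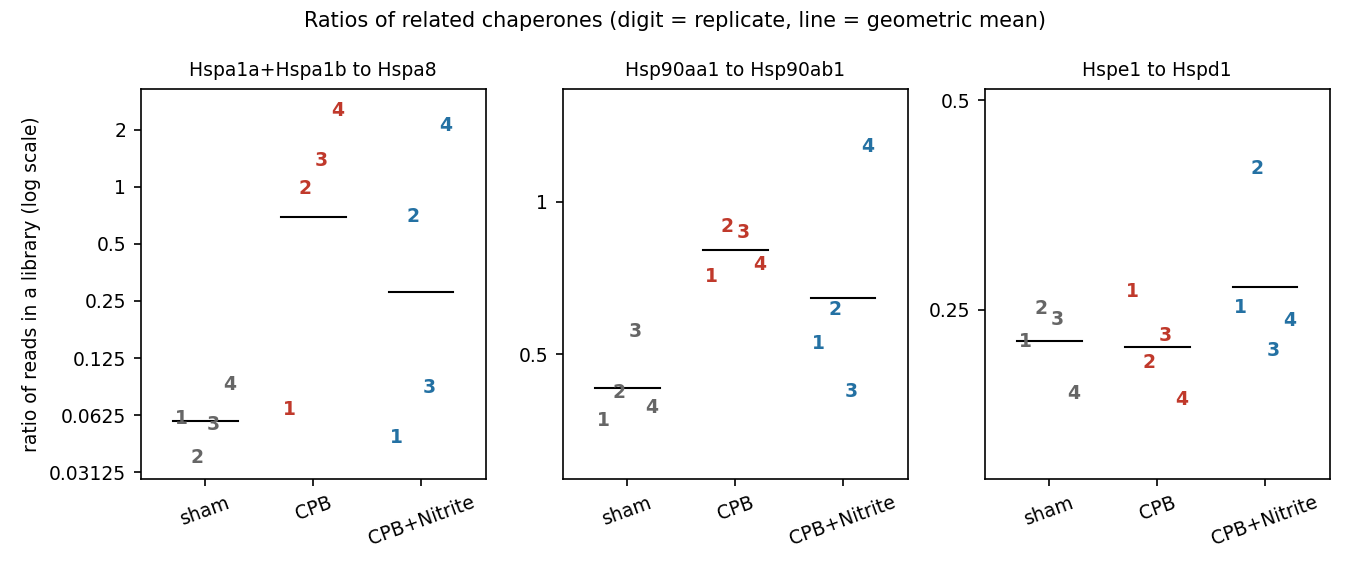
Ratio of reads within each library, on a log axis, for the inducible over the constitutive HSP70 genes, Hsp90aa1 over Hsp90ab1, and Hspe1 over Hspd1; digits are replicate numbers and lines the geometric mean of each group of 4. The HSP70 ratio spans 0.0668 to 2.52 within CPB, and the HSP90 ratio of every CPB library lies above the sham range of 0.369 to 0.556.

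The spread of chaperone levels within the treated groups was wide. The SD of log2 CPM within a group had a median over the 10 genes of 0.32 in sham, 1.07 in CPB and 1.65 in CPB+Nitrite. Over all tested genes the medians were 0.23, 0.26 and 0.43. Across the 10 genes the SD in CPB ran from 0.30 for Hspe1 to 3.07 for Hspa1b.

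The same libraries were high for nearly every chaperone. CPB 3, CPB 4 and CPB+Nitrite 4 were among the 4 highest libraries for all 10 genes and CPB 2 for 9 of them, the exception being Hspe1, where CPB+Nitrite 2 took that place. The median over the 10 genes of the log2 level relative to sham was 0.24, 2.03, 2.74 and 2.67 in CPB 1 to 4. In CPB+Nitrite 1 to 4 it was 0.02, 0.41, 0.02 and 3.43. Over the 45 pairs of genes the correlation of log2 CPM across the 12 libraries had a median of 0.903 and a range of 0.753 to 0.993. The highest value was that of the near-identical copies Hspa1a and Hspa1b, which entered as separate genes. These libraries share their treatment groups, so the correlations are descriptions.

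**Figure D3:**
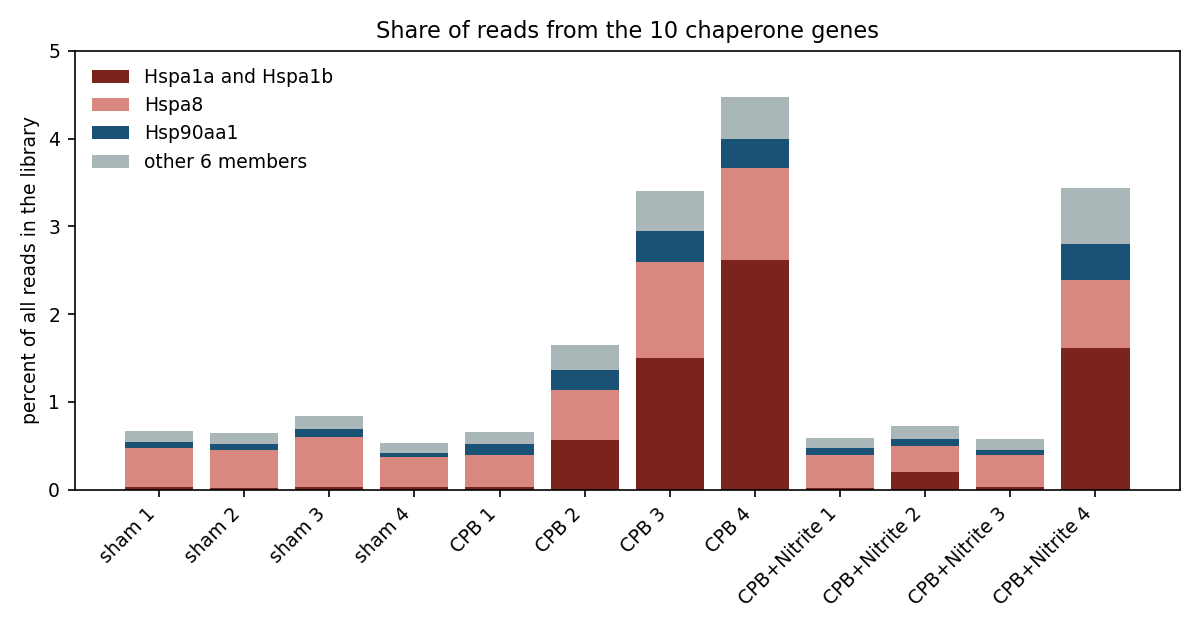
Percent of all reads in each of the 12 libraries that came from the 10 chaperone genes, stacked with Hspa1a and Hspa1b, Hspa8, Hsp90aa1 and the other 6 genes. The stacks reach 3.40% and 4.47% in CPB 3 and CPB 4 and 3.43% in CPB+Nitrite 4, and lie between 0.533% and 0.837% in sham.

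As a share of all reads, the 10 genes made up 0.533% to 0.837% of a sham library. In CPB 1 to 4 the share was 0.659%, 1.65%, 3.40% and 4.47% (Wilson 95% interval 4.46% to 4.48% in CPB 4). In CPB+Nitrite 1 to 4 it was 0.592%, 0.728%, 0.572% and 3.43% (3.43% to 3.44% in library 4). Hspa1a and Hspa1b together gave 2.62% of all reads in CPB 4 (2.61% to 2.63%) and 1.61% in CPB+Nitrite 4.

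CPB 1 had low chaperone levels but lay with the other CPB libraries by its other genes, at 47.1 on the first component. Of the 10 chaperones, 5 lay above all sham libraries in CPB 1, and all 10 did so in each of CPB 2, CPB 3 and CPB 4. The share of all tested genes above all sham libraries was alike in the 4 CPB libraries (34.8%, 35.7%, 36.7% and 37.0%). The mean log2 level of the proximal tubule markers relative to sham was -0.59 in CPB 1 and -0.33 to -0.39 in the other CPB libraries. Library totals were 25.8 M reads in CPB 1 and 19.1, 19.8 and 16.8 M in CPB 2, 3 and 4, so that the deepest CPB library had the lowest chaperone levels. The part of depth in these levels was not tested.

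CPB+Nitrite 4 was the counterpart in the nitrite group. All 10 chaperones lay above all sham libraries in it, against 2, 6 and 1 of the 10 in CPB+Nitrite 1, 2 and 3. The shares of all tested genes above sham were 33.7%, 35.1%, 21.1% and 35.6% in the 4 libraries. CPB+Nitrite 1 lay further toward the CPB side of the first component than CPB+Nitrite 4, at 42.8 against 26.8, with a median chaperone level of 0.02 against 3.43. Markers of the inner medulla and of high solute load (7 genes) included Cryab, itself a small heat-shock protein. Cryab was at 214.1 to 477.8 CPM in sham, 479.0 to 615.9 CPM in CPB and 175.4 to 1288 CPM in CPB+Nitrite. Summed, the 7 markers lay at 437.9 to 1050 CPM in sham, 1124 to 1378 CPM after bypass and 557.6 to 2781 CPM with nitrite. Their mean log2 level relative to sham was -1.64, 1.44, 0.17 and 1.14 in CPB+Nitrite 1 to 4 and -0.35, -0.16, 0.16 and 0.26 in CPB 1 to 4, and their part in the chaperone levels was not tested.

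**Figure D4:**
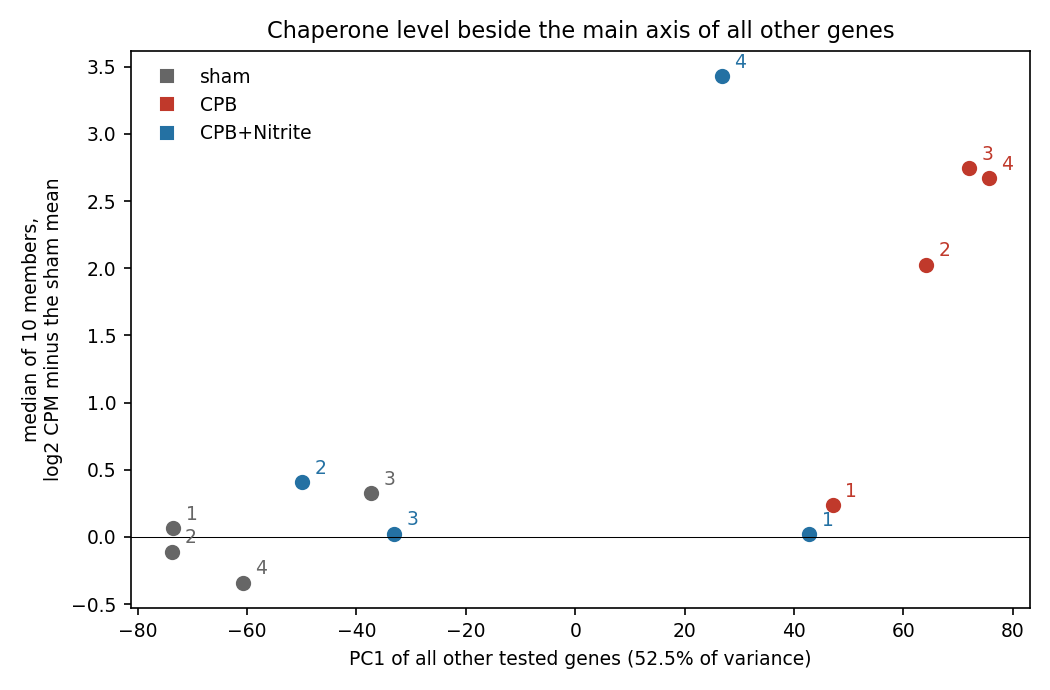
Median level of the 10 chaperones in each library (log2 CPM minus the sham mean) against the first principal component of all other tested genes; each point is a library with its replicate number, grey for sham, red for CPB and blue for CPB+Nitrite. CPB 1 (47.1, 0.24) and CPB+Nitrite 1 (42.8, 0.02) lie on the CPB side of the component with chaperone levels near sham, and CPB+Nitrite 4 (26.8, 3.43) has the highest chaperone level.

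Markers of other cells moved between the groups as well. In CPB against sham, where 21.7% of all tested genes rose and 21.5% fell by edgeR's test at an adjusted p under 0.05, 4 of 5 smooth muscle and pericyte markers fell, 3 of 7 proximal tubule markers, 2 of 5 markers of the thick ascending limb and distal tubule, 2 of 6 of the collecting duct, 2 of 5 urothelial and 1 of 5 adipocyte markers. Of 8 leukocyte markers 3 rose and 1 fell, of 5 endothelial markers and of 7 inner medullary markers 1 rose and 1 fell each, 1 of 2 tested muscle markers rose, and 0 of 5 podocyte, 3 tested erythrocyte and 2 tested adrenal markers passed. The mean log2 level of the thick ascending limb and distal tubule markers relative to sham was -1.07 to -1.62 in the CPB libraries and -3.07 to -0.21 in CPB+Nitrite. CPB+Nitrite 2 held the lowest of these values and the highest endothelial (2.18) and erythrocyte (3.22) marker levels of the 12 libraries. The summed leukocyte markers lay between 27.8 and 48.0 CPM in sham libraries, between 44.2 and 54.4 CPM after bypass and between 47.8 and 60.6 CPM with nitrite. The summed urothelial markers ran from 0.919 to 164.4 CPM among the sham libraries alone. The part of these cells in the chaperone differences was not tested.

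The comparison of CPB+Nitrite with CPB asks whether nitrite changed the response to bypass. All 10 chaperones had a lower fitted level with nitrite, where 54.1% of all tested genes had a higher one. Of them 0 of the 10 passed the quasi-likelihood test of edgeR, Benjamini-Hochberg adjusted, as did 0.0% of all tested genes. The log2 differences ran from -1.88 for Hspa1a to -0.11 for Hspe1, with a median of -0.72 where the median of all tested genes was 0.05. Adjusted p-values ran from 0.157 for Hspa8 (log2 difference -0.90, SE 0.40) to 0.827 for Dnajb1. At an unadjusted p under 0.05 there was 1 of the 10 genes, Hspa8, against 29.4% of all tested genes, and 0 of the 10 passed with DESeq2 (5.84% of all genes lower) or with limma's voom (0.0% lower). The groups overlapped for all 10 genes. Every CPB+Nitrite library lay below every CPB library in 6.27% of all tested genes, so 0 of the 10 was near that share.

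The summed Hspa1a and Hspa1b level differed by -1.48 on the log2 scale between CPB+Nitrite and CPB, and an SE of 1.27 (edgeR adjusted p = 0.438). CPB+Nitrite 4 set much of the size of these differences. Without it the median log2 difference of the 10 genes was -1.93, with a range of -4.42 to -0.53. Again 0 of the 10 passed (edgeR adjusted p = 0.0517 to 0.123), as did 0.0% of all tested genes in that fit. Without CPB+Nitrite 4 the summed Hspa1a and Hspa1b level differed by -4.04. In Dnajb1, Hspe1 and Bag3 the sign of the small difference turned when 1 other library was left out.

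Against sham, CPB+Nitrite had higher fitted levels of all 10 chaperones and of 52.9% of all tested genes, and 0 of the 10 passed the quasi-likelihood test of edgeR, Benjamini-Hochberg adjusted, where 3.85% of all tested genes rose. The median log2 difference was 1.82, against 0.04 over all tested genes. The smallest adjusted p was that of Hspb1, 0.0618, with a log2 difference of 3.08 (SE 0.90). The summed Hspa1a and Hspa1b level differed by 4.22 (SE 1.42, edgeR adjusted p = 0.0883), and Hspa8 by 0.09 (edgeR adjusted p = 0.898). At an unadjusted p under 0.05 there were 7 of the 10, against 27.4% of all tested genes. DESeq2 called 3 of the 10, namely Hspb1 and the near-identical copies Hspa1a and Hspa1b, where it called 9.68% of all genes higher. With limma's voom 1 passed, Hspb1, where 12.4% of all genes were higher.

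No chaperone had all CPB+Nitrite libraries above all sham libraries, which is near the share of 5.64% of all tested genes that did. Without CPB+Nitrite 4 the median log2 difference of the 10 genes from sham was 0.19, with a range of -0.31 for Hspa8 to 1.76 for Hspb1. Without CPB+Nitrite 3 Hspb1 and Hspa1b passed (edgeR adjusted p = 0.0155 and 0.0361), and without CPB+Nitrite 2 Hspb1 passed (0.0470). Over all genes the calls in the higher direction went from 565 to 1620 and 1324 in these 2 fits. The means stood in the order CPB, CPB+Nitrite, sham for all 10 genes, but the medians of Hspa8 (3755 against 4088 CPM) and Hspd1 (620.1 against 682.1 CPM) were lower in CPB+Nitrite than in sham. Each comparison shares a group of libraries with each of the others, so their values stand side by side and are not independent.

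**Figure D5:**
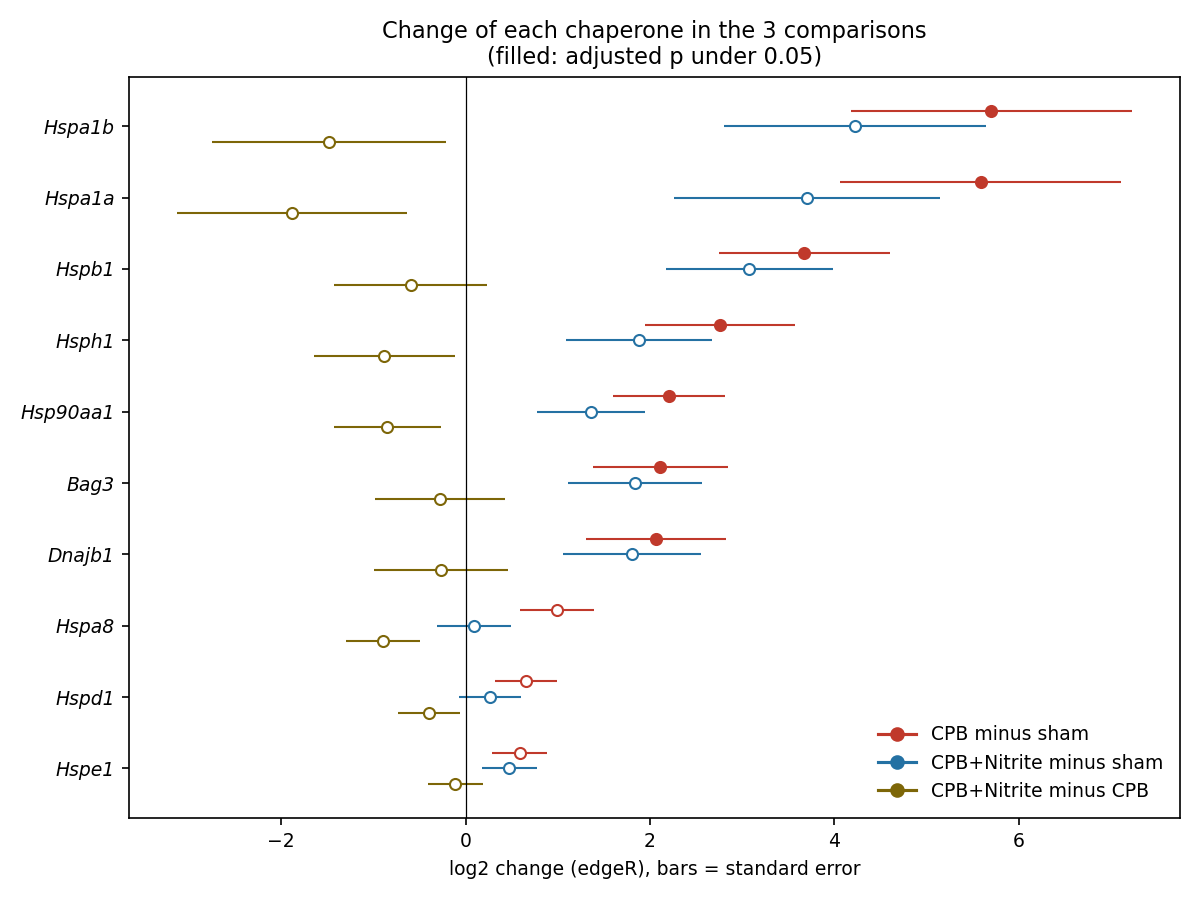
Fitted log2 change of each of the 10 chaperones in the 3 comparisons, with bars of 1 standard error, derived from the statistic of the test. Filled points passed an adjusted p of 0.05 in edgeR's quasi-likelihood test. The 7 filled points all belong to CPB minus sham, and the points of CPB+Nitrite minus CPB all lie below 0, from -1.88 to -0.11.

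Other genes of the same machinery were counted in 9 lists with 90 genes, of which 87 were tested. In CPB against sham 43 of the 87 rose and 11 fell by edgeR's adjusted p, where 21.7% of all tested genes rose and 21.5% fell; each list count in CPB below is to be read against these 2 shares. In CPB+Nitrite against sham 4 of the 87 rose (Ier5, Hspa2, Cryaa and Pfdn2) and 0 fell, where 3.85% of all tested genes rose and 0.955% fell, so the share that rose was near that of all genes. In the same comparison DESeq2 called 10 higher and 1 lower (9.68% and 4.79% of all genes) and voom 15 and 4 (12.4% and 10.4%). In CPB+Nitrite against CPB 0 of the 87 passed in edgeR or with voom, as did 0.0% of all tested genes in edgeR, and 37 of the 87 had an unadjusted p under 0.05, against 29.4% of all tested genes. DESeq2 called 3 higher and 20 lower there, against 8.85% and 5.84% of all genes. Of the 6 heat-shock factors and feedback genes 3 rose in CPB: Ier5, an immediate early gene that assists HSF1, from 8.17 to 13.5 CPM in sham to 55.2 to 72.9 CPM (log2 change 2.59, edgeR adjusted p = 0.00164), its relative Ier5l (32.3 CPM at most in sham and 33.0 to 50.7 CPM in CPB) and Hsf1 itself. Hsf1 was at 31.1 to 34.3 CPM in sham and 45.9 to 54.3 CPM in CPB, a log2 change of 0.63 (edgeR adjusted p = 0.00475). Ier5 was high in CPB 1 too, at 55.2 CPM, where most of the 10 chaperones were close to sham.

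Among 11 other HSP70 and HSP110 genes 6 rose and 1 fell. Hspa14, a ribosome-bound HSP70, was at 42.0 CPM at most in sham and at 131.3, 110.5, 178.8 and 134.4 CPM in CPB 1 to 4 (log2 change 2.05). Hspa5, the HSP70 of the endoplasmic reticulum known as BiP, rose by 1.88 and Hspa2 by 1.38, while Hspa12a fell by 0.83. Of 15 J-domain co-chaperones 9 rose, among them Dnajb9 of the endoplasmic reticulum (from 42.5 to 47.7 CPM in sham to 92.0 to 114.6 CPM), Dnajc2 (log2 change 0.64) and Dnajb6 (0.52), and 2 fell, the mitochondrial Dnaja3 (-0.63) and Dnajb14 (-0.63). Of 8 nucleotide exchange factors Bag2 (1.11), Bag5 (0.68) and Hspbp1 (0.44) rose and Sil1, which serves BiP, fell by 0.46.

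Among 6 other small heat-shock proteins 1 rose and 3 fell. Cryaa, the lens crystallin, rose by 3.04 from levels of 0.186 to 0.368 CPM, and Hspb6 and Hspb2, known from muscle, fell by 1.01 and 0.88. In the same comparison 4 of 5 smooth muscle and pericyte markers fell, and their part in the fall of Hspb6 and Hspb2 was not tested. Cryab had a log2 change of 0.83 that did not pass (edgeR adjusted p = 0.167), with its highest levels in CPB+Nitrite 4 (1288 CPM) and CPB+Nitrite 2 (760.6 CPM). Among 15 HSP90 relatives and co-chaperones 9 rose, including Hsp90b1 of the endoplasmic reticulum (1.49), the HSP90 activator Ahsa1 (0.96) and Ptges3, the p23 co-chaperone (0.70), and 2 fell, including the mitochondrial Trap1 (-0.46).

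In the cytosolic chaperonin TRiC and its partner prefoldin 8 of 13 genes rose and 0 fell, for example Cct4 by 0.80, Cct5 by 0.67 and Pfdn2 by 0.60. Among 10 mitochondrial chaperones and proteases besides Hspd1 and Hspe1 1 rose, the exchange factor Grpel2 (1.02), and 3 fell, namely the unfoldase Clpx (-0.84), Dnaja3 and Trap1 (both also counted above), so that this list was not set apart from the 21.5% of all tested genes that fell. The autophagy receptor Sqstm1 rose by 1.43 and the deacetylase Hdac6 fell by 0.90. The 43 genes that rose lay above all sham libraries in 36 cases in CPB 1, 41 in CPB 2 and 43 in each of CPB 3 and CPB 4, a description only, since these libraries chose them. The same 43 did so in 30, 11, 11 and 33 cases in CPB+Nitrite 1 to 4. Of all tested genes 33.7%, 35.1%, 21.1% and 35.6% did so in these libraries. The sham libraries also took part in choosing the 43 genes, so these counts too are descriptions.

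The genes whose levels followed the 10 chaperones most closely over the 12 libraries were found by Pearson correlation of log2 CPM with the mean standardised chaperone level, given here with no test. They were Dnaja1, a J-domain co-chaperone of HSP70 (r = 0.993, Spearman's rho 0.930), Serpinh1, the collagen chaperone of the endoplasmic reticulum (0.982, 0.895), Dedd2 (0.970, 0.881), P4ha1, a collagen prolyl hydroxylase subunit (0.957, 0.937), LOC679731 (0.956, 0.783) and the unnamed ENSRNOG00000069893 (0.956, 0.818). Dnaja1 was at 270.4 to 417.5 CPM in sham, at 427.1, 903.0, 1736 and 1449 CPM in CPB and at 359.2, 370.1, 321.8 and 2104 CPM in CPB+Nitrite. It thus showed the low CPB 1 and the high CPB+Nitrite 4 of the 10 genes, a description only, since these libraries chose it. Closest to the summed Hspa1a and Hspa1b level were Serpinh1 (0.954, 0.860), Hspa4l of the HSP110 family (0.945, 0.986) and the phospholipid flippase Atp8a1 (0.941, 0.930). The 12 libraries share 3 treatment groups, which contributes to all of these correlations.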

How the data were processed

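RNA of 12 rat kidney samples, 4 per group, was analysed, with groups and replicate numbers from the labels. Per the labels' protocols, a QIAzol extraction was followed by DNase and by a strand-specific NEBNext Ultra II Directional preparation. The submitters' processing notes list Salmon 1.2.1, cutadapt 1.18, bcl2fastq 2.19, R 3.5.1 and the build mRatBN7.2. The deposited table held the authors' estimated counts per gene, of which 33.1% of non-zero values were not whole (tolerance 1e-06). Whether counting used strand is not given in the sources used here. A second table held the authors' scaled signal, the counts times 1 factor per library (largest departure 0.0033 in genes of at least 100 reads), and supplied symbols and coordinates.

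Counts were rounded, filtered by filterByExpr (minimum count 10; 14664 genes, 99.95% of reads) and fitted over all 12 libraries with edgeR 4.0.16 in R 4.3.3 (TMM, glmQLFit and glmQLFTest, no covariates, two-sided, Benjamini-Hochberg, threshold 0.05). What edgeR calls the biological coefficient of variation was 0.317 in common over all tested genes, with 9 residual degrees of freedom. So 4 replicates limit precision more than the 16.8 to 25.8 M reads per library. The chaperones varied more, with a median SD of log2 CPM of 1.07 in CPB and 1.65 in CPB+Nitrite. Over all tested genes these medians were 0.26 and 0.43. The SE of an edgeR log2 change was its absolute size divided by the square root of the F statistic of the quasi-likelihood test. Log2 levels used a prior count of 2, and ratios added 0.5 to each count. The test was checked on simulated counts. Named genes were all 10 chaperones, Hsp90ab1, Hsf1, up to 3 genes per list with the smallest p in CPB versus sham and up to 2 more in CPB+Nitrite versus sham, and the most alike genes (6 and 3); a part is named, and the counts of the list that holds Sqstm1 and Hdac6 are not reported here. The members, gene lists and tests were chosen with earlier results of these data known. Alternatives were RLE factors, library totals, the authors' factors, no filter, a mean of at least 2 CPM, DESeq2 1.42.0, voom of limma 3.58.1 with sample weights, only the compared groups, a replicate block, the Hspa1a and Hspa1b sum, 5 counts added in ratios, and each library left out.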

Additional observations from a re-analysis of the deposited data

Results flagged for a closer look

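In CPB+Nitrite 4 the highest value of the group stood far from the other 3 libraries for 7 of the 10 chaperones and for the summed Hspa1a and Hspa1b level, by a gap that, as a share of the group's whole range, exceeded Dixon's 95% critical value for 4 samples. Hspa1a was at 33.2 CPM there (gap 0.888 of the range), Hspa1b at 16336 CPM (0.893) and their sum at 16369 CPM (0.893). Hsph1 stood at 2180 CPM (0.980), Dnajb1 at 723.6 CPM (0.953) and Bag3 at 587.4 CPM (0.943). Hsp90aa1 stood at 4215 CPM (0.929) and Hspd1 at 1647 CPM (0.911). In all, 42 combinations of a gene or ratio with a group were examined and these 8 passed, all of them in this library. For the genes the gaps were taken on CPM, not on log2 CPM. Chance gives about 1 in 20 per combination only for normally distributed values. The chaperones vary together, so the 8 are not independent. No explanation was tested.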

How the results depend on the processing

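In CPB against sham all 10 chaperones kept a positive difference under every alternative run. The 7 calls became 6 (library totals, replicate block), 8 (DESeq2) and 10 (voom, sham and CPB alone, without CPB+Nitrite 4). With Hspa1a and Hspa1b counted once as their sum there were 6. Leaving out 1 library gave 5 to 10 calls, with 5 without any 1 sham library or without CPB 2, CPB 3 or CPB 4. Over all genes the 3184 higher calls became 2281 (library totals), 3100 (replicate block), 3661 (DESeq2), 4363 (voom) and 4071 (sham and CPB alone). They ran from 2369 (without sham 2) to 3697 (without CPB+Nitrite 2) with 1 library left out. In CPB+Nitrite against CPB the calls over all genes were 2235 with DESeq2, 1 with voom and 0 to 2865 with 1 library left out (2865 without CPB+Nitrite 1, 4 without CPB 1), with 0 chaperones among them each time. In CPB+Nitrite against sham the 705 calls over all genes became 2144 (DESeq2), 3345 (voom), 0 (the compared groups alone), 28 (replicate block) and 0 to 2976 (1 library left out: 0 without sham 2 or CPB+Nitrite 4, 2976 without CPB+Nitrite 3), and the chaperones called 3 (DESeq2), 1 (voom) and 0 to 2 (1 library left out). The summed Hspa1a and Hspa1b difference from sham (4.22) was 4.23 with DESeq2 (adjusted p = 0.0052), 2.89 with voom (0.137), 2.27 with the replicate block (edgeR, 0.3) and 1.67 to 4.62 with 1 library left out. Small differences changed sign. In CPB+Nitrite against CPB, leaving out 1 library gave ranges of -1.864 to 0.056 for Dnajb1 (above 0 without CPB 3 or CPB+Nitrite 3), -0.528 to 0.055 for Hspe1 (above 0 without CPB 3, CPB+Nitrite 1 or CPB+Nitrite 3; 0.013 with library totals) and -1.936 to 0.057 for Bag3 (above 0 without CPB+Nitrite 2 or 3). In CPB+Nitrite against sham the ranges were -0.311 to 0.271 for Hspa8 (below 0 without sham 4 or CPB+Nitrite 4; -0.011 with the replicate block) and -0.264 to 0.424 for Hspd1 (below 0 without CPB+Nitrite 4). The Hspe1 to Hspd1 ratio in CPB against sham ran from -0.12 to 0.051. The causes were not tested.

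The labels do not say that replicate numbers pair the samples. Same-numbered libraries of different groups had residual correlations of -0.107 to 0.381 (median 0.052, 12 pairs), and 5 of 12 libraries correlated best with a same-numbered library. With the replicate number as a block, the summed Hspa1a and Hspa1b change in CPB was 4.39 (edgeR adjusted p = 0.0324), Dnajb1 alone among the 7 lost its call (1.65, adjusted p = 0.0634), and the ratio tests could not go below a sign-flip p of 0.125. Depth limits Hspa1a most, with 5 to 26 reads in the sham libraries, CPB 1, CPB+Nitrite 1 and CPB+Nitrite 3.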
